A study of Mus musculus with 2 samples.

Results

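The Mir148/Mir152 family comprises 3 mouse microRNA genes, Mir148a, Mir148b and Mir152, whose main mature products carry one and the same seed. The members were chosen by GENCODE M21 gene name, and all 3 were found among the 2202 microRNA genes counted in each library. Small RNA of the size range labelled <30 was sequenced from the gastrocnemius, the large calf muscle, of male adult mice aged 8 to 10 months. The strain is labelled 5xFAD/CAST. 5xFAD is a transgenic line used as a model of amyloid disease, with expression driven by the neuronal Thy1 promoter, while CAST is an inbred strain derived from wild mice. Whether the sampled animals carried the transgene is not given in the labels. The series has 1 group of 2 libraries, biological replicates 1 and 2, from separate tissue samples under 1 donor record. Nothing says that the tissue came from separate animals, so tests between the libraries measure only the spread between these samples, which may be technical. There is no treated or control group, and the questions open to the data are how much of each member the muscle held and whether the members kept the same proportions in both libraries.

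A microRNA is cut from a hairpin precursor, and the strand that is kept guides the Argonaute protein to messenger RNAs that pair with its seed, the bases near its 5′ end. Members of a seed family can therefore recognise many of the same target sites, while they differ in the rest of their sequence and in the loci that make them. The Mir148/Mir152 family is known for repression of Dnmt1, the maintenance DNA methyltransferase. miR-148a is a leading microRNA of the liver and is also known in fat tissue and in the differentiation of muscle precursor cells.

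The mature 3p products are shown first because they define the family. Sequences are from RefSeq (GRCm38.p6, the assembly also called mm10), and all 3 genes were matched there. Capitals mark the seed, bases 2 to 8.
miR-148a-3p: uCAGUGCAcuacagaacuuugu
miR-148b-3p: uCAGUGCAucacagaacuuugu
miR-152-3p: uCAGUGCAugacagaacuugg
The seed is identical in the 3 products. Of 1738 mature mouse microRNAs in the table, these 3 alone have the letters CAGUGCA at bases 2 to 8. Positions are counted from 1 at the 5′ end, with the base of the first-named member first. miR-148a-3p differed from miR-148b-3p at 2 of 22 positions, C9U and U10C. miR-148a-3p differed from miR-152-3p at 3 of 21 positions, C9U, U10G and U20G, and miR-148b-3p differed from miR-152-3p at 2, C10G and U20G. Positions 9, 10 and 20 thus hold every difference between the 3p products over the length they share.

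The opposite arm of each hairpin is less alike. It is shown because the deposited counts are per gene and do not separate the arms. Capitals again mark bases 2 to 8.
miR-148a-5p: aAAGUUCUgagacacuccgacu
miR-148b-5p: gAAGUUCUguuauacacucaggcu
miR-152-5p: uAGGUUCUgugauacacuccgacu
The 5p products of Mir148a and Mir148b share a seed, and that of Mir152 differs from both at A3G. Aligned from their first base, miR-148a-5p and miR-148b-5p agree at 13 of 22 positions, against 20 of 22 for the 3p products.

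The whole hairpins show how far the loci can be told apart by short reads. Capitals mark the 3p product.
Mir148a: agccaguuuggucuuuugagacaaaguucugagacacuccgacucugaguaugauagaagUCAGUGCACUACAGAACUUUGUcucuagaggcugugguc
Mir148b: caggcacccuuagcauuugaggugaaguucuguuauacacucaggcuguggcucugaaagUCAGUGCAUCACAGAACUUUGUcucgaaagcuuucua
Mir152: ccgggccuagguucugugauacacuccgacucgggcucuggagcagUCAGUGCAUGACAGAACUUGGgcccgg
The hairpins are 99, 97 and 73 bases long. The longest run that Mir148a and Mir148b share with any other microRNA gene is 15 bases, which they share with each other, and that of Mir152 is 13 bases, shared with Mir3473f. No member has a run of 20 bases in common with another microRNA gene. Reads with more than one alignment are not part of any gene's count, and how many of them came from this family was not tested.

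The 3 genes lie on different chromosomes of mm10. Mir152 (ENSMUSG00000065515.1) is at chr11:96850393-96850465 on the plus strand, in the first intron of Copz2, and Mir148b (ENSMUSG00000065560.1) is at chr15:103285125-103285221 on the plus strand, in the first intron of Copz1. Copz1 and Copz2 encode the 2 forms of the zeta subunit of the COPI vesicle coat, and both are transcribed in the direction of their microRNA. The Copz2 intron has 676 bases and the hairpin begins 396 bases past the first exon. The Copz1 intron has 16159 bases and the hairpin begins 12183 bases past the first exon. These positions refer to the transcripts Copz2-201 and Copz1-201, and neither hairpin overlaps an exon of any annotated transcript of its host. Mir148a (ENSMUSG00000065505.1), at chr6:51269812-51269910 on the minus strand, overlaps no other annotated gene. Each member stands alone, since the nearest other microRNA gene is 65.2 kb away for Mir148b, 213 kb for Mir152 and 352 kb for Mir148a.

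**Figure D1:**
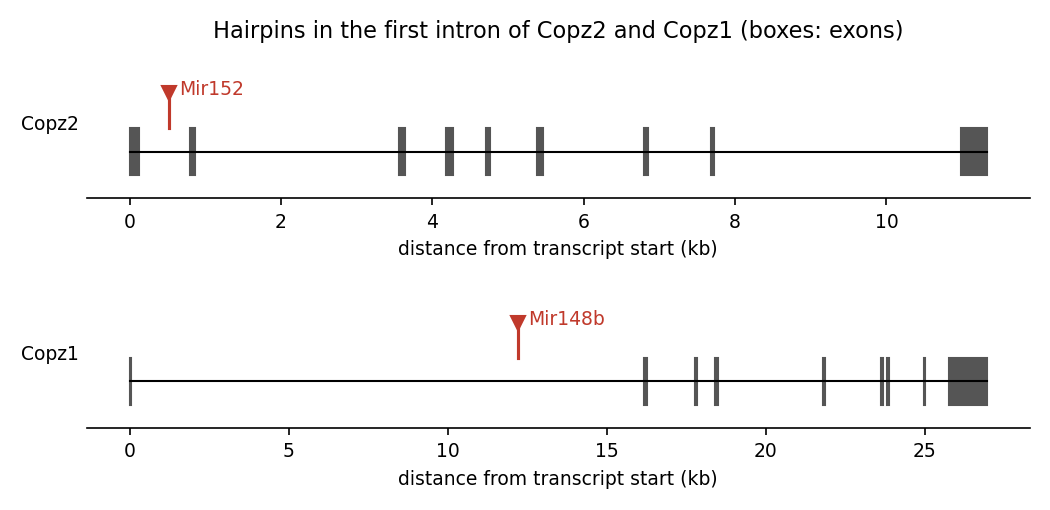
The transcripts Copz2-201 (top) and Copz1-201 (bottom) are drawn to scale by distance from the transcript start in kb, with grey boxes for the 9 exons of each and a red marker for the start of the hairpin. Both hairpins sit in the first intron, 517 bases past the start in Copz2 and 12215 bases past it in Copz1.

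The surroundings of the 3 loci have gene families in common. Within 250 kb of Mir148a lie 3 protein-coding genes, Nfe2l3, Hnrnpa2b1 and Cbx3. Within 250 kb of Mir148b lie 14, among them Nfe2, Hnrnpa1 and Cbx5, and within 250 kb of Mir152 lie 15, among them Nfe2l1 and Cbx1. Nfe2, Nfe2l1 and Nfe2l3 encode transcription factors of the cap'n'collar group, Cbx1, Cbx3 and Cbx5 encode the heterochromatin protein 1 family, and the Hnrnpa genes encode RNA-binding proteins. Of 4 protein-coding genes in the annotation with a symbol of the Nfe2 group, 3 are neighbours of a family member. These neighbours were chosen after the annotation was seen, and none of them was measured here.

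**Figure D2:**
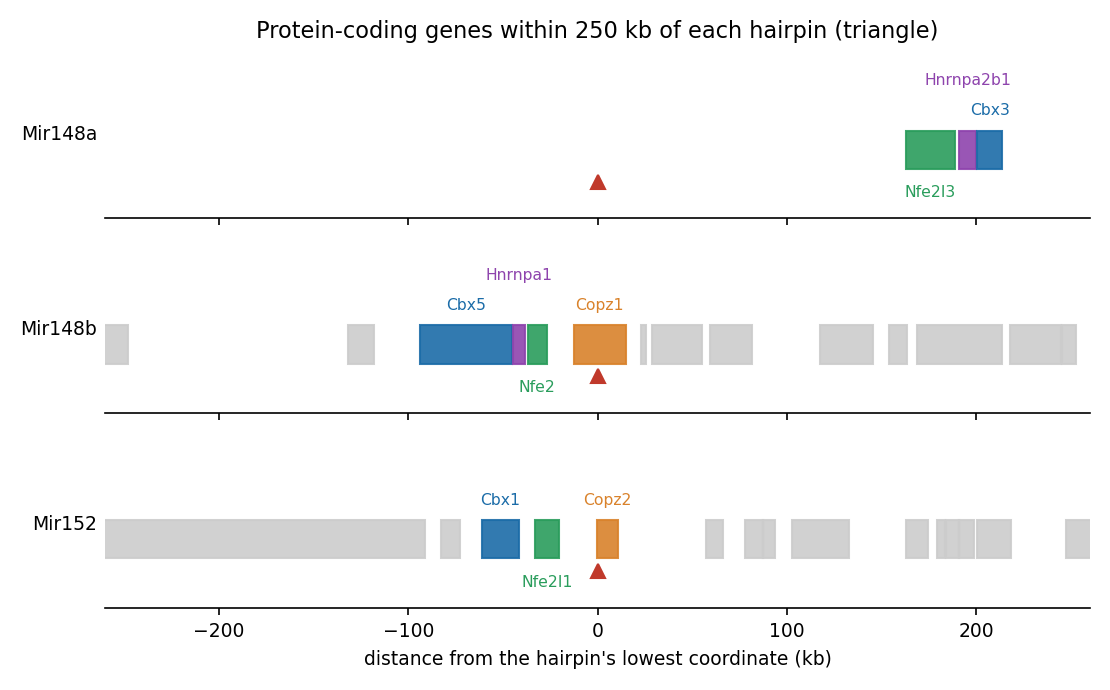
Protein-coding genes within 250 kb of each hairpin, by distance in kb from the hairpin's lowest coordinate (red triangle). Green, purple, blue and orange boxes mark genes of the Nfe2, Hnrnpa, Cbx and Copz groups, grey boxes mark other genes, and boxes that reach past the axis are clipped; an Nfe2 and a Cbx gene appear in all 3 panels.

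Mir152 was the most abundant member in both libraries. It had 211 reads in replicate 1 and 213 in replicate 2, out of 1157420 and 1193393 reads on the sense strand of microRNA genes. Scaled to 1000000 of those reads (CPM) this was 182 (exact Clopper-Pearson 95% interval 159 to 209) and 178 (155 to 204), with a mean of 180 ± 2.70 CPM (SD, n = 2). The 2 libraries were close to each other for this gene, and each lay inside the interval of the other. In bulk tissue, fewer cells that make a microRNA and less of it per cell cannot be told apart.

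Mir148b had 34 reads in replicate 1 and 68 in replicate 2, which was 29.4 CPM (exact 95% interval 20.3 to 41.0) and 57.0 CPM (44.2 to 72.2). Its mean was 43.2 ± 19.5 CPM (SD, n = 2). Mir148a had 26 and 53 reads, 22.5 CPM (14.7 to 32.9) and 44.4 CPM (33.3 to 58.1), with a mean of 33.4 ± 15.5 CPM (SD, n = 2). For both genes replicate 2 was the higher library, and the 2 intervals did not overlap. All members were well above the limit that a count of 0 allows, which is 3 counts or 2.59 CPM in replicate 1 and 2.51 in replicate 2. These limits and the intervals take in counting error alone, because PCR copies without molecular identifiers are not separate molecules.

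The order of the levels was Mir152, Mir148b, Mir148a in each library. Mir152 did not overlap either of the others: its lower CPM value, 178, was above the highest of theirs, 57.0. Mir148b and Mir148a were not separated, since their values of 29.4 and 57.0 CPM against 22.5 and 44.4 CPM overlapped. The mature 3p products have 21 or 22 bases, so that a read covers nearly a whole product whichever gene it is from. Divided by hairpin length, the mean levels were 2.47 CPM per base for Mir152, 0.445 for Mir148b and 0.338 for Mir148a, in the same order.

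**Figure D3:**
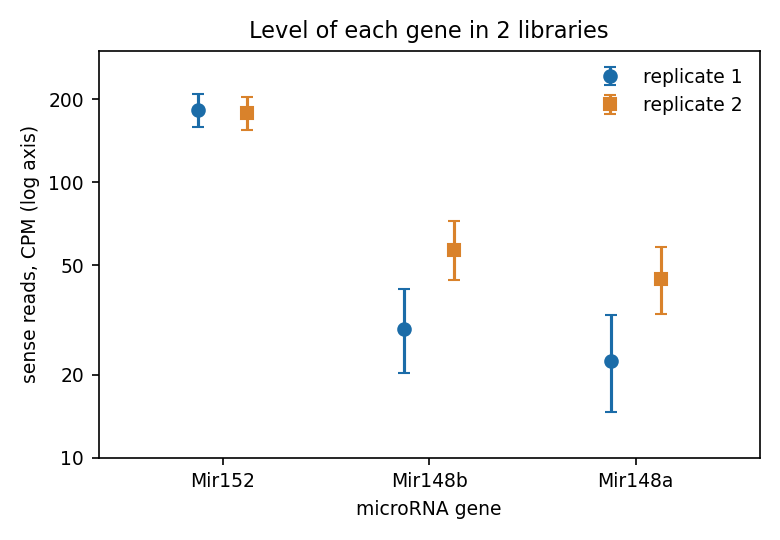
Sense reads in CPM (log axis) for each gene, with blue circles for replicate 1, orange squares for replicate 2 and bars for the exact 95% interval of counting error. Mir152 sits at 182 and 178 CPM, while Mir148b and Mir148a are lower and differ between the libraries.

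These are modest levels for this tissue. Among 321 genes detected at 2 CPM or more in both libraries, Mir152 ranked 104 by mean CPM, Mir148b 167 and Mir148a 187, against a median of 48.5 CPM over detected genes. The whole family held 234 CPM in replicate 1 (271 reads, exact 95% interval 207 to 264) and 280 CPM in replicate 2 (334 reads, 251 to 312), or 0.0234% and 0.028% of the sense reads. In the column that counts the opposite strand, no member had a read in either library, and the column of both strands held the same counts as the sense column for all 3.

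Set against counting error alone, the make-up of the family differed between the libraries. Mir152 supplied 77.9% of the family's reads in replicate 1 (exact 95% interval 72.4 to 82.7) and 63.8% in replicate 2 (58.4 to 68.9). Mir148b supplied 12.5% (8.85 to 17.1) and 20.4% (16.2 to 25.1), and Mir148a 9.59% (6.36 to 13.7) and 15.9% (12.1 to 20.2). In both libraries Mir152 held the majority, and only for Mir152 did the 2 intervals of the share stay apart.

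**Figure D4:**
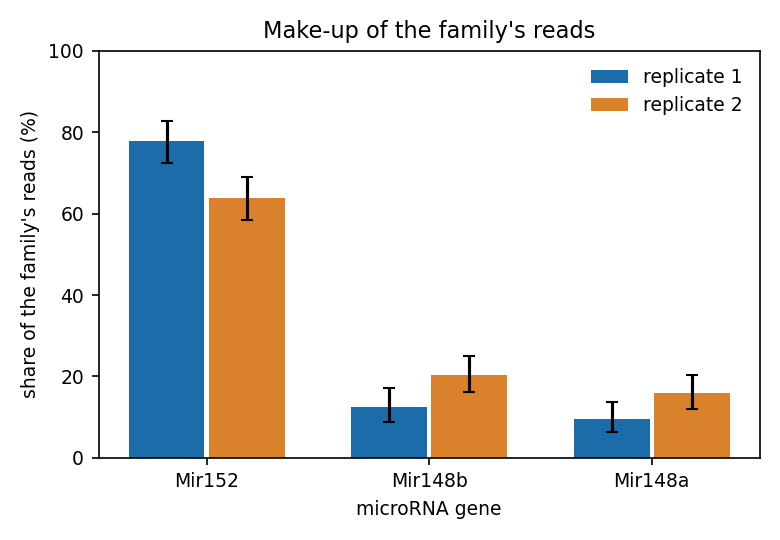
Share of the family's reads (%) that each gene supplied, with blue bars for replicate 1, orange bars for replicate 2 and the exact 95% interval. Mir152 supplied 77.9% and 63.8%, and the other genes from 9.59% to 20.4%.

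Ratios between members within a library do not depend on how the libraries are scaled, and all 3 pairs were compared between the libraries with Fisher's exact test (two-sided), adjusted by Benjamini-Hochberg over the 3. There were 6.21 reads of Mir152 for each read of Mir148b in replicate 1 (exact 95% interval 4.31 to 9.20) and 3.13 in replicate 2 (2.37 to 4.18). The ratio was 1.98 times as high in replicate 1 (1.23 to 3.22, Fisher's exact adjusted p = 0.0086). For Mir152 over Mir148a the ratios were 8.12 (5.39 to 12.7) and 4.02 (2.96 to 5.54), a change of 2.02 times (1.19 to 3.49, Fisher's exact adjusted p = 0.010). Mir148b over Mir148a stood at 1.31 (0.762 to 2.27) and 1.28 (0.883 to 1.87). For that pair the change of 1.02 times did not pass (Fisher's exact adjusted p = 1), but its interval ran from 0.522 to 2.00, so the test does not show that this ratio was equal in the libraries. Fisher's test sets the counts against sampling noise alone, and compares 2 libraries, not conditions. The 3 pairs draw on the same 3 genes, and their ratios were not tested against the wider spread over all detected genes.

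The members were then compared between the libraries across all detected genes, with TMM scaling and a two-sided exact conditional binomial test adjusted by Benjamini-Hochberg over 321 genes. Mir148a was 2.45-fold higher in replicate 2 (95% interval 1.50 to 4.07, exact binomial adjusted p = 0.00057). Mir148b was 2.40-fold higher (1.57 to 3.74, exact binomial adjusted p = 9.3e-05). Mir152 did not pass at 1.21-fold (0.996 to 1.47, exact binomial adjusted p = 0.12), and with total counts only its ratio of replicate 2 over replicate 1 was 0.979. So 2 of 3 members were called, both higher in replicate 2, where 37.4% of all detected genes were called in either direction and 18.7% as higher in replicate 2. Over all detected genes 60 were higher and 60 lower, and 35 and 114 with total counts only. Counted together, the family was 1.48-fold higher in replicate 2 (1.26 to 1.74, exact binomial p = 1.7e-06). With total counts only this was 1.20-fold (1.02 to 1.41, exact binomial p = 0.031), and at the spread common to all genes it did not pass (edgeR exact test p = 0.43).

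Scaling by total counts shifted the median of all genes by -0.31 (log2). Under it Mir148a was 1.98-fold (1.21 to 3.29) and Mir148b 1.94-fold higher in replicate 2 (1.27 to 3.02). Both still passed (exact binomial adjusted p = 0.012 and 0.0040), where 10.9% of genes were called higher in replicate 2. Ordered by log2 ratio from the highest in replicate 2 downward, Mir148a ranked 15 and Mir148b 16 of 321, the latter tied with other genes, and Mir152 ranked 97. Between 20 and 200 CPM, a window set after the values were seen, 11 of 115 genes were at least 2-fold higher in replicate 2, Mir148a and Mir148b included.

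The exact binomial test knows only counting error, and the 2 libraries varied more than that. edgeR put the coefficient of variation common to all detected genes at 33.8%. This spread was estimated from the same 2 libraries, taken as 1 group, so the differences under test are part of it. With this spread in the edgeR exact test, an alternative chosen after seeing the data, no member was called. The unadjusted p was 0.12 for Mir148a, 0.11 for Mir148b and 0.71 for Mir152 (edgeR exact test), and the adjusted p was 1 for each. That test called 5 of 321 genes, or 1.56%, and 11 genes had an unadjusted p under 0.05. The differences of Mir148a and Mir148b were thus larger than counting error, and did not pass once the spread over all genes was taken into account. Because that spread comes from the libraries compared, not passing does not show that their levels were equal.

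**Figure D5:**
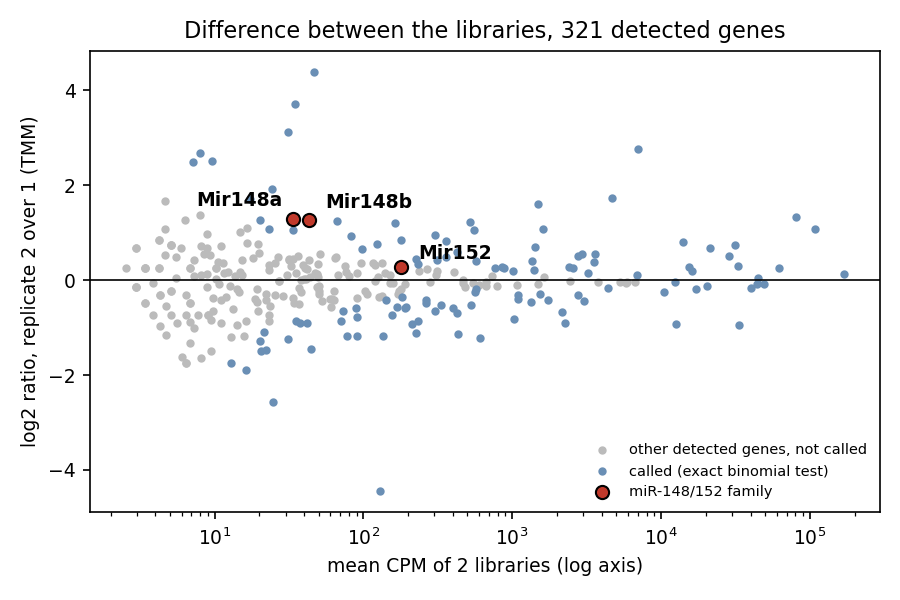
Log2 ratio of replicate 2 over replicate 1 after TMM scaling against mean CPM (log axis), with 1 point per detected gene. Blue points passed the exact binomial test, grey points did not, and the 3 family members are red; Mir148a and Mir148b lie at 1.29 and 1.26, Mir152 at 0.28.

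Genes of like level and pattern were found by the distance between their pairs of log2(CPM + 1) values, over the 2 libraries. Mir3068 was the nearest gene to Mir148a, at a distance of 0.17, and also the nearest to Mir148b, at 0.49. It had 29 and 50 reads. The next nearest to each of these members was the other one, at 0.51. Mir339 (0.26) and Mir30b (0.33) were nearest to Mir152. By rank of mean CPM, Mir148b stood between Mir128-2 and Mir467e, and Mir152 between Mirlet7a-2 and Mir25. Mir148a stood between Mir3068 and Mir326. With 2 libraries, likeness of this kind describes level more than covariation.

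A list of 8 other microRNAs known to act on DNA methyltransferases, comprising the miR-29 family, Mir185, Mir342, Mir101a and Mir101b, held 15046 CPM in replicate 1 and 20357 CPM in replicate 2. Mir29a alone supplied 79.7% ± 2.75 of these reads (SD, n = 2). Single genes of the list lay on both sides of the mean of the family sum, 257 CPM, from 14166 CPM for Mir29a to 23.4 CPM for Mir29b-2. Those below it, Mir29b-1, Mir29b-2 and Mir101a, each have a run of 20 bases in another microRNA gene and may be undercounted. So do Mir29c and Mir101b, which lay above it. All 8 were detected. By the exact binomial test, which knows counting error only, replicate 2 had 2 of them higher and 1 lower, where 37.4% of all detected genes were called. The median log2 ratio was 0.16 against -0.01 over all detected genes. Mir29a and Mir29c, which target Dnmt3a and Dnmt3b, were the higher ones, at 1.76-fold (1.72 to 1.80) and 2.12-fold (1.99 to 2.27). Mir342, known to act on Dnmt1 as the Mir148/Mir152 family does, was the lower one at 0.751 times (0.636 to 0.886). Mir185 (1.06 times), Mir29b-1 (1.23), Mir29b-2 (1.16), Mir101a (1.08) and Mir101b (0.914) were not called. Whether the ratios went with the target was not tested. Of 19 genes listed for muscle differentiation, 18 were detected, with a median of 0.12. By the same test 8 were higher and 3 lower, where 18.7% of all detected genes were called higher. The direction of some of these calls depended on the scaling. Mir378a was called higher at 1.10-fold, but its CPM was 179759 in replicate 1 and 159404 in replicate 2. Mir206 was called higher at 1.24-fold, with 32948 and 32931 CPM. The list as a whole held 23.0% and 20.9% of the sense reads in replicates 1 and 2. For the family itself the median of the 3 log2 ratios was 1.26, which is the ratio of Mir148b, while Mir152 stood at 0.28. By summed reads after TMM scaling the family was 1.48-fold higher in replicate 2. The DNA methyltransferase list was 1.67-fold and the muscle differentiation list 1.12-fold higher by the same measure.

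Set beside other seed families, Mir148/Mir152 was small. The miR-181 family held 7.74 and 4.91 times its CPM in replicates 1 and 2, the miR-29 family 55.5 and 67.1 times, and the miR-30 family 114 and 89.0 times. The leading locus held 70.8% ± 9.96 (SD, n = 2) of the Mir148/Mir152 reads, with Mir152 in front. Mir29a held 89.3% ± 1.05 of the miR-29 family, Mir30a 59.8% ± 1.66 of the miR-30 family and Mir181a-2 55.0% ± 9.62 of the miR-181 family. Several loci of these families have near-identical copies and may be undercounted, so the comparison is a description without a test.

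Markers of the tissue and its other cell types were read in the same libraries, and each list was summed. The 9 muscle fibre genes, led by Mir206, held 3.87% and 3.73% of the sense reads in replicates 1 and 2. After TMM scaling this was 1.19-fold (1.18 to 1.21) in replicate 2. By the exact binomial test 3 of them were higher and 2 lower, where 37.4% of all detected genes were called. The list's Mir1a and Mir133 loci each have a run of 20 bases in another microRNA gene and may be undercounted. The sums are therefore no measure of the share of each cell type. The smooth muscle pair held 5.08% and 4.21%, or 1.03-fold (1.01 to 1.04) after TMM scaling. The direction of this sum and of the muscle fibre sum depended on the scaling. Within the pair the exact binomial test called Mir143 higher in replicate 2, at 1.04-fold (1.03 to 1.05). It called Mir145a lower, at 0.750 times (0.704 to 0.799). The endothelial Mir126a held 8.08% and 13.8%, or 2.11-fold (2.09 to 2.13). The 8 nerve genes held 0.0297% and 0.0422%, or 1.76-fold (1.53 to 2.02), but Mir128-1 was the only one detected. The Mir124a loci, Mir9-2 and Mir9-3 had no read. Each of the 8 has a run of 20 bases in another microRNA gene and may be undercounted, so a lack of reads does not show absence. The 6 fibroblast genes held 3.45% and 2.07%, or 0.742 times (0.730 to 0.753). That sum was led by Mir21a at 0.524 times (0.511 to 0.537), while Mir214 stood at 0.991 and Mir10b at 0.968 times, and the median log2 ratio of the list was -0.05. The 4 leukocyte genes held 0.318% and 0.225%, or 0.875 times (0.833 to 0.920). The erythroid pair moved apart, with 180 and 117 reads of Mir451a, which did not pass, and 9 and 65 of Mir144, which was 8.66-fold higher in replicate 2 (4.29 to 19.8). Mir144 also passed the edgeR exact test at the common dispersion (adjusted p = 0.033). Mir126a, Mir128-1 and Mir21a did not pass it (edgeR exact test unadjusted p = 0.13, 0.25 and 0.19). The intervals given for these markers take in counting error alone. Among epithelial genes Mir203 had 130 and 84 reads and did not pass, and Mir200c had 3 and 16 and was called higher in replicate 2 by the exact binomial test. The liver microRNA Mir122 had 12 and 13 reads, and whether any Mir148a reads came from liver was not tested. Pancreas genes had 13 and 5 reads in sum, with Mir217 at 0. The part of these shifts in the higher Mir148a and Mir148b counts of replicate 2 was not tested.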

How the data were processed

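The authors deposited raw counts of reads for each microRNA gene, as whole numbers. The columns carry no names: from their layout and totals they were read as both strands, the sense strand and the opposite strand. Coordinates are those of mm10 and gene models those of GENCODE M21, as the deposited descriptions state. Which aligner was used is not given in the sources used here. Totals that name no gene (4 lines, with 81.1% and 82.0% of the reads in replicates 1 and 2) stayed out of library sizes and tests. Reads with several alignments made up 60.2% and 63.2% of 6119818 and 6632802 reads.

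From the sense counts, CPM, exact Clopper-Pearson 95% intervals, TMM effective sizes (edgeR 4.0.16, factors 1.11 and 0.899) and exact tests were computed with R 4.3.3, Python 3.11.15 and scipy 1.17.1. Genes at 2 CPM or more in both libraries were tested, and the threshold was an adjusted p of 0.05. Quasi-likelihood testing could not be fitted with 1 library on each side. Of the tests, the exact binomial and Fisher's exact were tried on simulated counts that hold counting error alone. The simulation does not cover the wider spread of the real libraries. Alternatives included DESeq2 1.42.0 size factors.

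The members and lists were chosen with earlier results of these data known. The rule for named genes took the members, for each the 2 closest in level and its neighbours in rank, and at most the 3 most abundant genes of each list. Genes named beyond it were chosen after their values were seen. Among them are Mir342, Mir29b-1, Mir29b-2, Mir101a, Mir101b, Mir200c, the Mir1a and Mir133 loci, the nerve markers and the Mir130 and Mir301 loci.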

Additional observations from a re-analysis of the deposited data

How the results depend on the processing

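With the totals lines added to the denominator, mean levels were 6.12 CPM for Mir148a, 7.90 for Mir148b, 33.3 for Mir152 and 47.3 for the family. Without the most abundant gene in the denominator Mir152 held 217 CPM and the family 309, and with the column of both strands, whose total is smaller, 257 and 367. With total counts only, the log2 ratio of Mir152 turned to -0.031. The count of 120 genes differing between the libraries fell to 53 where edgeR was given a dispersion of 0.01 and to 5 at the common dispersion, an alternative chosen after seeing the data. At the common dispersion the log2 ratios of 1.29 for Mir148a, 1.26 for Mir148b and 0.56 for the family no longer passed. In the other settings run (the column of both strands, DESeq2 size factors, total counts, no filter, a filter of 10 CPM, removal of genes with a run of 20 bases in another gene, and a dispersion of 0.01) Mir148a and Mir148b kept their calls. Leaving out a replicate gave the values of the other library, and no ratio. No paired analysis was possible because there is 1 group. With 26 to 68 reads for Mir148a and Mir148b, depth limits their ratios more than those of Mir152.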

Other observations

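The letters of the family's seed also open another group of microRNAs, shifted by 1 base. This group was chosen by sequence after the members had been described. Of 1738 mature microRNAs, 17 contain CAGUGCA, the 3 family members at bases 2 to 8, 7 others at bases 1 to 7 and 7 further along. The 2 most abundant of the shifted group are shown with these letters in capitals.
miR-130a-3p: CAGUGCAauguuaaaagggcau
miR-301a-3p: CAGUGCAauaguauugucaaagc
Of the 7 shifted loci, 3 had reads in both libraries. Mir130a, known in endothelial and blood-forming cells, had 1043 and 1044 reads, at 888 ± 18.6 CPM (SD, n = 2). Mir301, which gives miR-301a-3p, had 6 and 105 reads. Replicate 2 was higher by 4.39 on the log2 scale (95% interval of the fold 9.33 to 58.5, exact binomial adjusted p = 7.1e-28, where 18.7% of genes were called higher). It also passed the edgeR exact test at the common dispersion (adjusted p = 0.00042). Mir130b had 10 and 5 reads and did not pass (exact binomial adjusted p = 0.61). The shifted group held 915 and 967 CPM, and the Mir148/Mir152 family held 0.256 and 0.289 times as many reads in replicates 1 and 2.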
